A study of Mus musculus with 12 samples.

Results

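The developmental patterning transcription factors are here the protein-coding genes of 14 families: Hox, Sox, Fox (subfamilies a to s), Tbx, Pax, Lhx, Nkx, the sine oculis homeobox family, Irx, Dlx, Otx, Pitx, Gbx and Gata. They were chosen by gene symbol, with earlier results of these data known. Of the 21631 protein-coding genes on chromosomes 1 to 19 and X, 177 belonged to them. A CpG site that the authors called differentially methylated counted for a gene when it fell inside the gene's span or no more than 5 kb from either end. Under this rule 42 of the 2798 called sites lay at 26 of the 177 genes, each site counted once.

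The samples were splenic CD11c dendritic cells of F1 female C57BL/6 mice, and reduced representation bisulfite sequencing (RRBS), which samples CpG-rich fragments of the genome, measured their DNA methylation. In 6 libraries the mother (F0) had received corn oil, and in 6 DEHP, di(2-ethylhexyl) phthalate, a softener of plastics, at 37 µg/kg/day, in each case for 10 days before she was crossed with an untreated male. All 12 libraries carry the label OVA for immunisation, so both groups share it; the parents were 6 to 8 weeks old when obtained, and no age is stated for the F1 mice. Whether each library stands for its own mouse is not stated in the labels, nor how many mothers stood behind a group, and the extraction note mentions spleen tissue beside the dendritic cells. No level or read count of a single library was used, because the tables hold the authors' comparison of the groups only. There is therefore no spread between libraries, the depth behind each site is unknown, and the cell type could not be checked against marker genes. A difference below is in percentage points of methylation, and "higher" or "lower" means in the maternal DEHP group. This reading of the sign is an assumption, since the table does not state which group was subtracted.

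These factors bind DNA and set the identity of body regions, organs and cell lineages in the embryo. In most adult tissues a large part of them is silent and kept so by Polycomb complexes, and their genes tend to lie in long CpG-rich domains with little methylation. A smaller part works in adult blood: GATA3 and T-bet (the product of Tbx21) direct T helper cell fates, and several HoxA and HoxB proteins act in blood progenitors. RRBS reads such CpG-rich sequence more often than the rest of the genome, and how many CpGs were testable at each gene is unknown here. The part this plays in the counts was not tested.

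Called sites lay at 14.7% of the patterning factor genes (26 of 177), against 6.59% of all protein-coding genes (1426 of 21631). A higher site was present at 14 of the genes (7.91%, against 3.53% of all genes) and a lower site at 13 (7.34%, against 3.81%). Only Foxa3 had both, 1 of the 26 genes with a site, against 162 of 1426 over all genes. A single gene is too few to compare these shares. The genes are short, with a median span of 6499 bp against 17329 bp over all genes, and long genes collect more sites. Each gene was therefore set beside the other protein-coding genes with a span within 10% of its own, and the shares with a called site were summed to an expected number. That number was 9.71 genes, so the observed number was 2.68 times the expected. No test was run on this ratio, since the families were chosen with earlier results of these data known.

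The share was above that of other genes in each of 5 equal classes of gene length, though the longer classes held few patterning factor genes. In the shortest class, spans of 144 to 4315 bp, 13.8% of 65 patterning factor genes had a called site against 2.46% of the other genes. In the next class the shares were 13.5% (7 of 52 genes) and 4.56%. In the third they were closest, 8.33% (only 2 of 24 genes) and 5.72%. Among spans of 24859 to 57768 bp they were 20% (4 of 20 genes) and 6.36%, and among the longest 25% (4 of 16 genes) and 13.5%. Inside the spans alone, 16 patterning factor genes (9.04%) had a site, against 5.02% of all genes. With 20 kb on either side, 40 did (22.6%), against 10.8%.

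**Figure D1:**
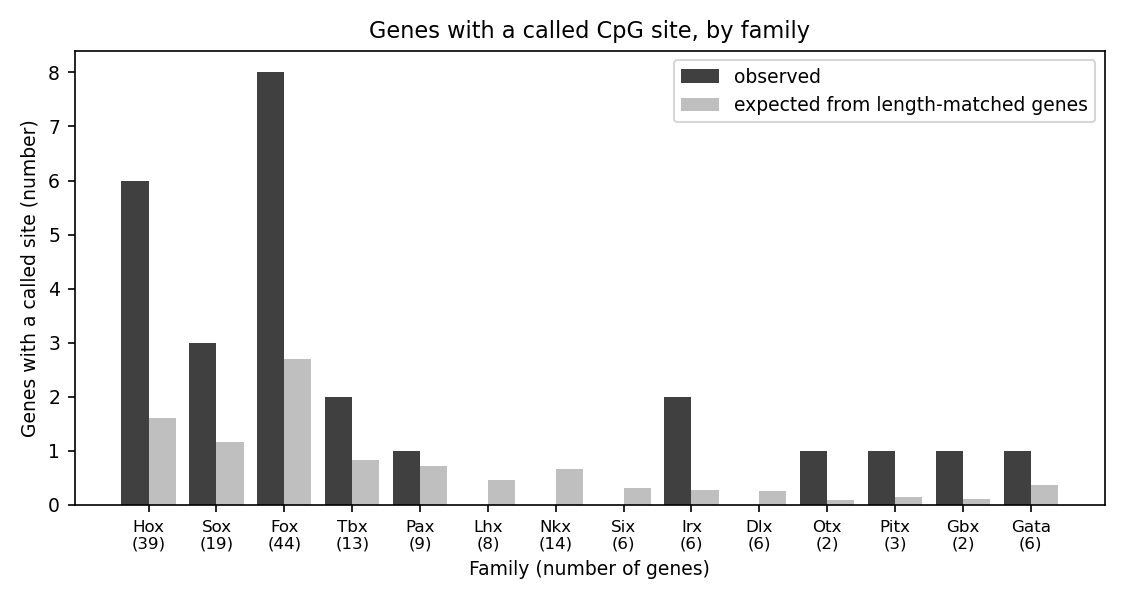
Number of genes with a called CpG site in each family (dark bars) and the number expected from protein-coding genes of like length (light bars); family sizes are in parentheses. Fox (8 of 44) and Hox (6 of 39) held the most, and Lhx, Nkx, Dlx and the sine oculis homeobox family had none. The observed number was above the expected in the 10 families that had a site. For all of these but Fox, Hox and Sox this follows from having a site, since under 1 gene was expected.

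Fox genes, which encode forkhead factors, had sites at 8 of 44 members (2.7 expected), and Hox genes, which set position along the body axis, at 6 of 39 (1.61 expected). Sox genes had sites at 3 of 19 (1.17 expected), T-box genes at 2 of 13 (0.831 expected) and Irx genes at 2 of 6 (0.279 expected). Pax, Otx, Pitx, Gbx and Gata had 1 gene each, of 9, 2, 3, 2 and 6. The Lhx, Nkx, Dlx and sine oculis homeobox families, 34 genes of limb, forebrain, heart, eye and gut patterning, had none, against 1.68 expected. With so small an expected number, 0 does not set these 4 families apart, and a gene without a called site may have been changed by less than the 25 points at which the list starts or not covered at all.

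Of the 42 sites, 18 were higher and 24 lower, and 13 of the lower ones lay at Sox3. Without Sox3, 18 of 29 sites were higher (62.1%), against 48.4% of all called sites. Merging sites within 1 kb gave 26 loci, 15 higher and 11 lower, of which 21 were single CpGs. The median size of the difference was 29.7 points at these genes, 28.8 points without Sox3, and 28.7 points over all called sites. Among the sites without Sox3, 69% differed by under 30 points, and 60.6% of all called sites did. In size, therefore, the sites outside Sox3 were near those of the list as a whole. The deposited q-value was 0 for 35 of the 42 sites, or 22 of the 29 without Sox3, and for 2073 of all 2798 called sites. The largest at the patterning factor genes was 1.93e-09. The gene with that largest value was Foxn3.

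**Figure D2:**
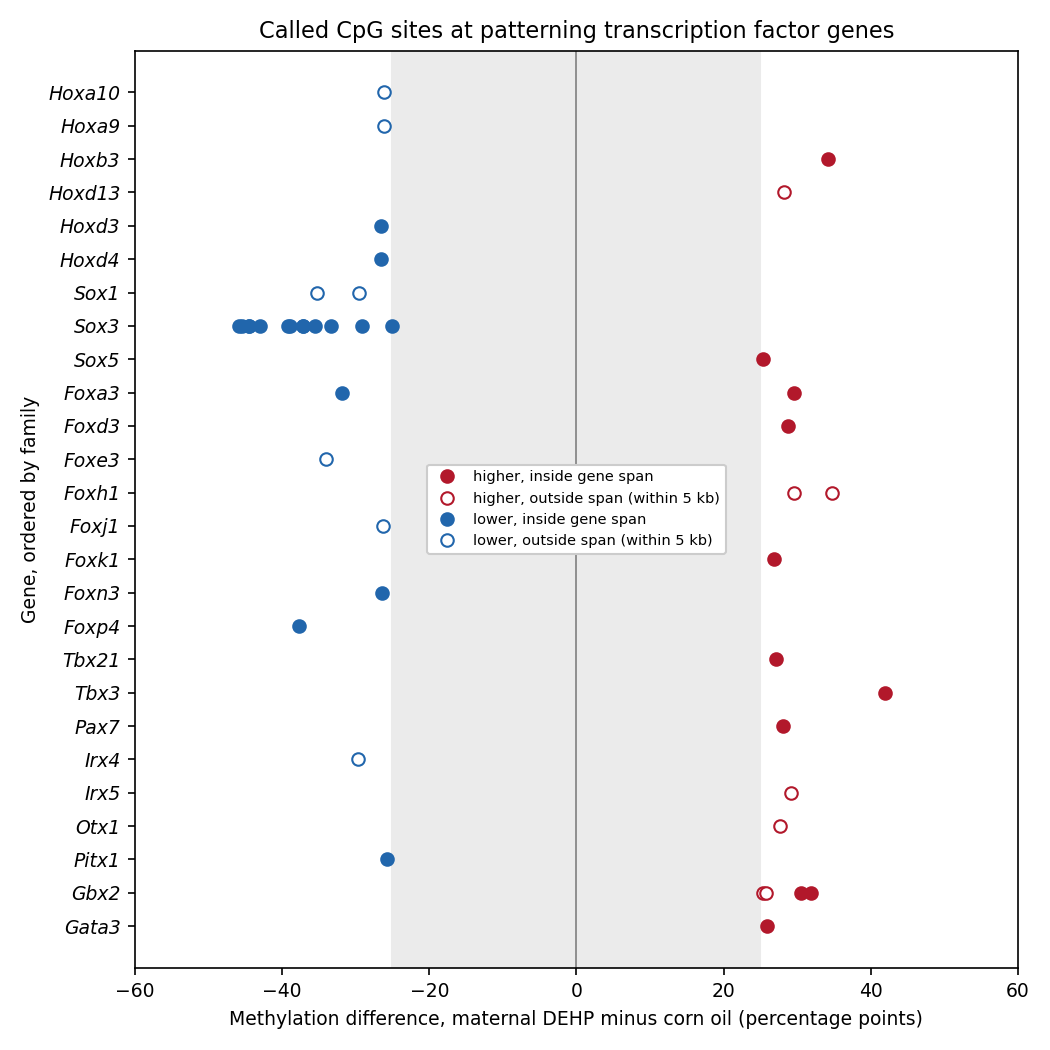
Each called CpG site at the 26 genes, plotted by its methylation difference in percentage points (horizontal axis); filled points lie inside the gene span, open points within 5 kb outside it, and the grey band marks differences too small for the list. Sox3 has 13 lower sites and Gbx2 4 higher ones, 21 genes have a single site, and Foxa3 has 1 site of each direction.

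The SoxB1 genes Sox1 and Sox3, which encode closely related factors of neural progenitors, had lower sites only. Sox3 lies on the X chromosome and its span, 60891366 to 60893430, is only 2065 bp long. Within it, 13 CpGs between positions 60892512 and 60892659 were called, at gaps of 2 to 22 bp, 1146 bp from the start of the span and 771 bp from its end. From the first to the last they differed by -44.5, -39.0, -33.3, -44.5, -35.5, -45.8, -45.4, -37.1, -39.2, -43.0, -25.0, -29.2 and -37.1 points in the authors' deposited table. All 13 were lower, 5 of them by 40 points or more, with a mean of -38.4 (SD over sites 6.5). This SD is a spread between neighbouring CpGs that can share reads, not between libraries. The smallest losses were at the eleventh and twelfth CpG, while the last went back to the middle of the range. Of the 2284 loci in the whole list, 3 had at least as many sites as Sox3, this one included, and 2 of these went in a single direction. Sox3 was the only one of the 6 X-linked patterning factor genes with a site. In female cells X-linked reads come from an active and an inactive copy, which the table does not separate.

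**Figure D3:**
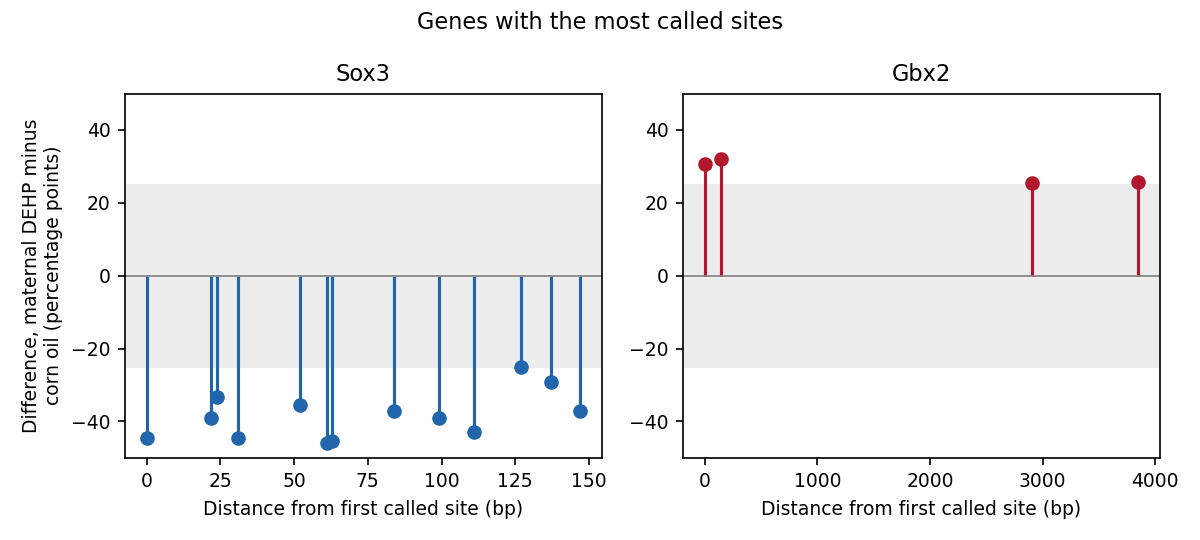
Methylation difference in percentage points (vertical axis) against distance from the first called site in bp (horizontal axis) for Sox3 and Gbx2, 1 line per CpG; the grey band marks differences too small for the list. The 13 Sox3 sites fill 147 bp and lie between -25.0 and -45.8, and the 4 Gbx2 sites are spread over 3850 bp and lie between 25.4 and 31.9.

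At Sox1, on chromosome 8, the CpGs at 12401159 and 12401167 were lower by -35.2 and -29.5 points in the authors' deposited table. Both CpGs were found 1604 and 1612 bp beyond the span, inside the long noncoding gene Sox1ot, and 5640 and 5648 bp downstream of the nearest transcription start listed for Sox1. Sox5, a SoxD factor of cartilage and glia, differed from these: its single site, at 143916251 on chromosome 6 deep within a long gene, was higher by 25.3 points in the authors' deposited table. Sox2, the third SoxB1 gene, fell just outside the 5 kb limit, with a higher site (34.6 points) 5951 bp from its span in the authors' deposited table. The other genes just beyond the limit were Foxf1 (5699 bp, -30.2 points) and Hoxb2 (5765 bp, the 34.2 point site of Hoxb3) in the authors' deposited table. Just within it were Foxe3, at 3359 bp, and Hoxa10, at 3223 bp.

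Gbx2, Otx1, Pax7 and Foxd3, further genes of brain or neural crest patterning, had higher sites only, with 1 site each except at Gbx2. Other genes of neural patterning went the other way: Sox1 and Sox3, and the hindbrain genes Hoxd3 and Hoxd4, which share a single site, had lower sites only. The neural genes named here thus had no common direction. Gbx2, whose product places the boundary between midbrain and hindbrain, had 4 higher sites on chromosome 1, more sites than any patterning factor gene but Sox3. The pair inside the span, at 89928771 and 89928918, differed by 30.6 and 31.9 points in the authors' deposited table. The other 2, at 89931677 and 89932621, lay 501 and 1445 bp upstream of the listed start of Gbx2 and differed by 25.4 and 25.8 points in the authors' deposited table. The last of them also lay in the span of the predicted coding gene LOC102637806. Gbx2 was thus higher on both sides of its start, at 3850 bp from the first site to the last. Otx1, a forebrain homeobox gene, had a site at 21993262 on chromosome 11, 1502 bp outside its span, higher by 27.7 points in the authors' deposited table. Pax7, a paired-box gene of neural crest and muscle stem cells, had 1 at 139739095 on chromosome 4, 2036 bp from the far end of a long gene, higher by 28.1 points in the authors' deposited table. Foxd3, a forkhead gene of neural crest and pluripotent cells, had the site closest to a listed transcription start. It lay at 99656403 on chromosome 4, 104 bp downstream of the start, and was higher by 28.8 points in the authors' deposited table.

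Promoter sequences were in the RefSeq table (GRCm38.p6) for 114 of the 177 genes (64.4%), 141 windows in all, each reaching from 250 bases before a listed start to 50 after it. None of these windows held a called site, which says nothing about the genes: 0.17% of all 32851 listed promoters held one, so 0.24 would be expected here. Of all called sites, 79 fell in a listed promoter of some gene, and 79 of 79 were at the C of a CpG, so the positions match this build. The 4 genes whose called sites came closest to a listed start are printed 5′ to 3′ with each CpG in capitals, to show the sequence beside which the differences were called.
Foxd3, chr4:99656049-99656348, plus strand: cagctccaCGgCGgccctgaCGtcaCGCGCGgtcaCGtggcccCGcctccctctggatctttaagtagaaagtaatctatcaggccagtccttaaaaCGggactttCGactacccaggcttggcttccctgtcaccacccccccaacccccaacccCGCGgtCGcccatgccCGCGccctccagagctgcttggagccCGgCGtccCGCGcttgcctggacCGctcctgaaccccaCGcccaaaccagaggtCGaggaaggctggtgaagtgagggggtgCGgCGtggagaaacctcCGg
Gbx2, chr1:89931127-89931426, minus strand: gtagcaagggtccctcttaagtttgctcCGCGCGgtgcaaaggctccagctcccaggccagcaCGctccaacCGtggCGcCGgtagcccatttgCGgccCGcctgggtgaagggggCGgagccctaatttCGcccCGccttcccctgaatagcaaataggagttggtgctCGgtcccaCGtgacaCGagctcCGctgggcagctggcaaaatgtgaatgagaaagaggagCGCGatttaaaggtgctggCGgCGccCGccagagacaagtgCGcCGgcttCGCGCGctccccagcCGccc
Hoxa9, chr6:52227321-52227620, minus strand: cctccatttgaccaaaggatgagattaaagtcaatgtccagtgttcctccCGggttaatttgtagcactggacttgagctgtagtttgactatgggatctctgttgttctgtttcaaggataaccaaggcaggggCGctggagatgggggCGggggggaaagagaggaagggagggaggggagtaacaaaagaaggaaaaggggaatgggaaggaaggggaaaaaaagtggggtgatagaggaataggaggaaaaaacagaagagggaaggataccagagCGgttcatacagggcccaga
Hoxd13, chr2:74667975-74668274, plus strand: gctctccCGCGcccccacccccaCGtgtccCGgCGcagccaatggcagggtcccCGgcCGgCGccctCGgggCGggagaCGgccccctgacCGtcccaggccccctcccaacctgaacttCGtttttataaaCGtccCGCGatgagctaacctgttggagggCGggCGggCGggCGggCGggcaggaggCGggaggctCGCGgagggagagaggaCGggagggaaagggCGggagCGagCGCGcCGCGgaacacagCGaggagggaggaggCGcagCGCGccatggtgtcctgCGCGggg

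The search was for CG, which reads the same on both strands. The Foxd3 promoter held 25 CpGs, a number that 18.4% of all listed promoters of this length reach. Gbx2 held 27 (reached by 15.5%) and Hoxd13 held 37 (reached by 5.58%). Hoxa9 differed, with 4 CpGs, a number that 68.6% of promoters reach, against a median of 7 over all. The letters CCGG, the site of MspI, an enzyme widely used for RRBS though not named in the labels, occurred 2 times in Foxd3, 2 in Gbx2, 1 in Hoxa9 and 3 in Hoxd13, and at least once in 52.8% of all listed promoters. The Foxd3 site lay 55 bp beyond the end of its window. Because fewer than 80% of the genes had a listed promoter, CpG content was not compared between the families and other genes.

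The 4 Hox clusters, which hold 39 genes in rows that follow the body axis, had 4 called sites in or within 5 kb of them. HoxD had 2, HoxA and HoxB 1 each, and HoxC, 115.7 kb long with 9 genes, none. The 6 Hox genes counted above therefore rest on 4 CpGs, since Hoxa9 shares its site with Hoxa10 and Hoxd3 with Hoxd4. The HoxA site, at 52227974 on chromosome 6, lay between Hoxa9 and Hoxa10, 604 bp upstream of the listed start of Hoxa9, and was lower by -26.2 points in the authors' deposited table. Both genes act in blood progenitors and are expressed in leukaemias. The site also lay in the long noncoding gene Gm52902. The HoxB site, at 96345867 on chromosome 11, lay in Hoxb3 and in its antisense gene Hoxb3os, and was higher by 34.2 points in the authors' deposited table. Hoxb3 likewise belongs to the HoxB genes of blood progenitors.

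In HoxD the sites went in opposite directions. At the end that patterns digits, 956 bp upstream of the listed start of Hoxd13, position 74667269 on chromosome 2 was higher by 28.2 points in the authors' deposited table. In the middle of the cluster, position 74728372, inside the overlapping spans of Hoxd3 and Hoxd4, was lower by -26.6 points in the authors' deposited table. Hoxd4 and Hoxd3 pattern the hindbrain and neck vertebrae. Evx2, a homeobox gene that lies next to Hoxd13 and shares limb enhancers with it, is not part of the Hox family but sits in the same neighbourhood. Its site at 74658710, 9.52 kb from the Hoxd13 span, was higher by 55.0 points in the authors' deposited table, rank 8 of all 2798 sites by size.

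**Figure D4:**
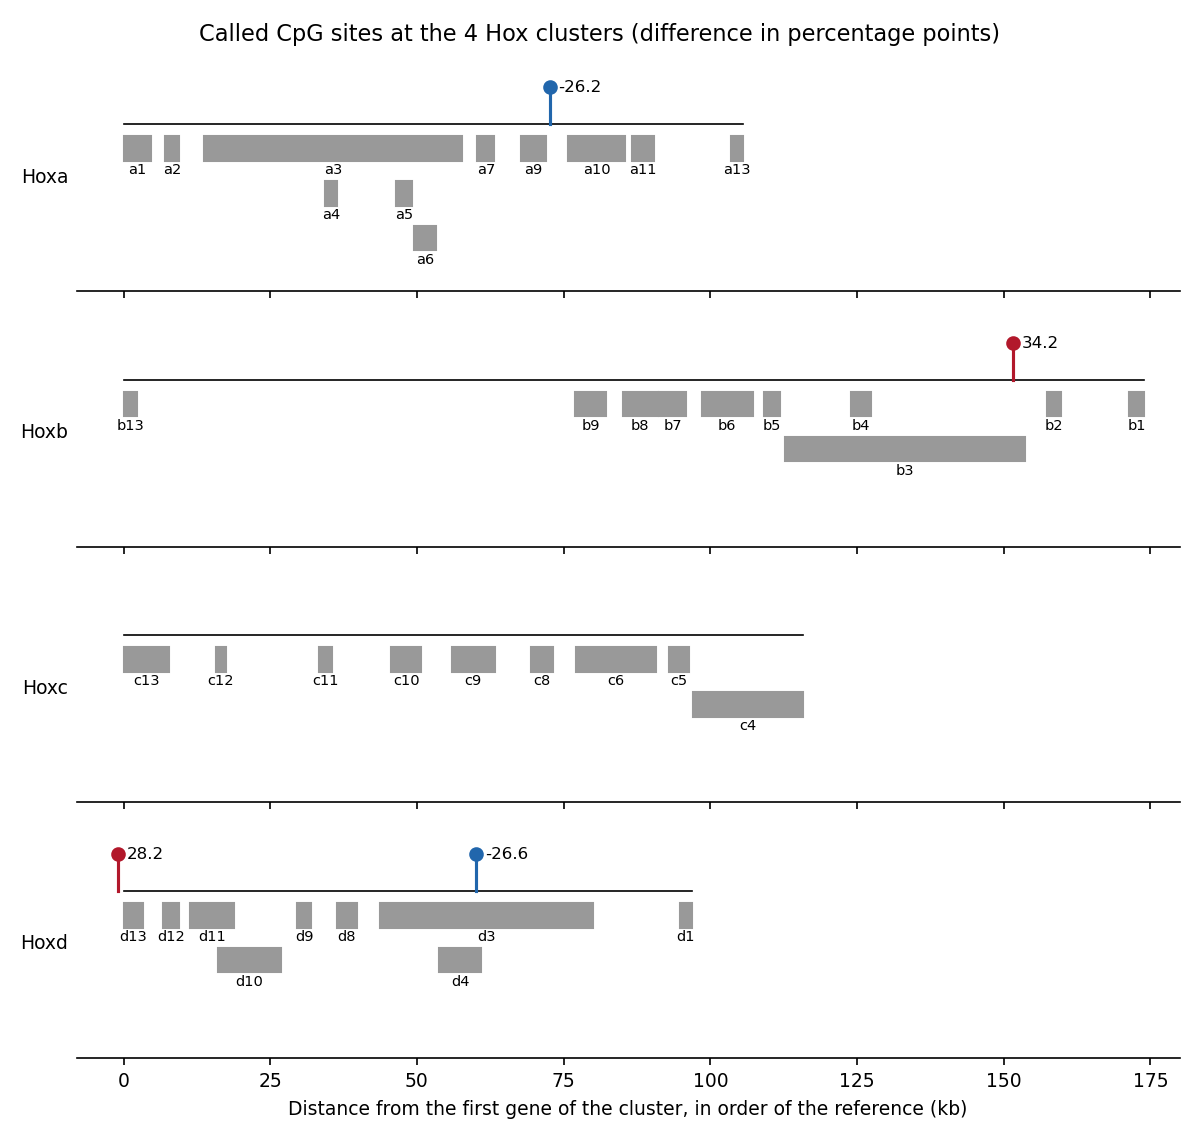
Gene spans (grey boxes, labelled by gene number) of the 4 Hox clusters along their length in kb, with each called CpG site as a pin labelled by its methylation difference in percentage points (red higher, blue lower in the maternal DEHP group). HoxD has a higher site beside Hoxd13 and a lower one in Hoxd3 and Hoxd4, HoxA has a lower site between Hoxa9 and Hoxa10, HoxB a higher one in Hoxb3, and HoxC none.

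Both lower Hox sites lay near microRNA genes of the clusters. The miR-10 and miR-196 families are encoded between Hox genes, and Hox transcripts are known targets of miR-196. The HoxD site was 2235 bp from the hairpin of Mir10b, and the HoxA site 2107 bp from that of Mir196b. The 5p mature sequences are shown, from the RefSeq table of GRCm38.p6, with the seed (bases 2 to 8) in capitals, since these are the other products encoded beside the sites.
mmu-miR-10b-5p: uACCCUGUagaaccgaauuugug
mmu-miR-196b-5p: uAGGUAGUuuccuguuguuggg

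Their seeds differ. Neither higher Hox site had a listed microRNA hairpin within 5 kb.

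The Fox family had 10 sites at 8 genes, 5 higher and 5 lower, with no common direction. Among the genes of early embryo and gut, Foxh1, a partner of SMAD proteins in Nodal signalling, had sites at 76667028 and 76667091 on chromosome 15, higher by 34.8 and 29.6 points in the authors' deposited table. These lay 801 and 738 bp outside Foxh1 and inside the span of the kinesin gene Kifc2, so they may belong to either gene. Foxa3, a pioneer factor gene of liver and gut on chromosome 7, had a lower site at 19014697 (-31.9 points) and a higher one at 19021066 (29.6 points) in the authors' deposited table. The 2 sites were 6369 bp apart.

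The lens gene Foxe3 had a lower site at 114929426 on chromosome 4, 3359 bp upstream of its listed start (-34.0 points in the authors' deposited table). Foxj1, the master gene of motile cilia, had a lower site at 116329765 on chromosome 11, 939 bp outside its span (-26.3 points in the authors' deposited table). Foxj1 is also known to restrain T cell activation. Foxp4, Foxn3 and Foxk1 had sites inside their spans. Foxp4, a relative of the regulatory T cell gene Foxp3, had the largest difference of the family, -37.7 points at 47867337 on chromosome 17 in the authors' deposited table. This CpG lay 204 bp from the end of the span that is far from the listed start. Foxn3, a transcriptional repressor gene, was lower at 99465425 on chromosome 12 by -26.4 points, and Foxk1, a repressor gene of metabolism and autophagy, higher at 142435991 on chromosome 5 by 26.9 points in the authors' deposited table.

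Among the T-box genes, both sites were higher. Tbx3, a gene of limb, heart and mammary development, had the largest gain of all patterning factor genes, 41.9 points at 119681099 on chromosome 5 in the authors' deposited table. It ranked 106 of 2798 sites by size, and the largest Sox3 loss ranked 51. Tbx21, which encodes the T helper 1 factor T-bet and is also expressed in dendritic cells, was higher by 27.2 points at 97114045 on chromosome 11 in the authors' deposited table, 1286 bp downstream of its start. Gata3, the gene of the T helper 2 factor, was higher by 25.9 points at 9880636 on chromosome 2 in the authors' deposited table. That CpG lay in the span, 2036 bp upstream of the nearest listed start.

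The Iroquois genes had 1 site of each direction. Irx5, a gene of retina and heart, was higher by 29.2 points at 92356827 on chromosome 8, and Irx4, a gene of the heart ventricle, lower by -29.7 points at 73257667 on chromosome 13 in the authors' deposited table. Both lay outside the spans, by 969 and 1922 bp. Pitx1, which specifies the hindlimb, was lower by -25.8 points at 55831614 on chromosome 13, within its span, in the authors' deposited table.

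Sites outside the spans were frequent at these short genes. In all, 29 of 42 sites (69%) lay inside the span of a patterning factor gene, or 16 of 29 (55.2%) without Sox3. Of the 1646 called sites at all protein-coding genes, 86.5% lay inside the span of any such gene. That is a wider measure, and the shares were not matched on gene length, so they cannot be compared directly. Of the 42 sites 3 lay inside a protein-coding gene of no patterning family, and the 69% does not count them as inside. Whether a CpG was in an exon, an intron or a UTR is not reported, since the gene table gives spans only.

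Neighbouring sites within 1 kb at the patterning factor genes went in the same direction. All 16 such adjacent pairs did, 12 of them at Sox3. At 1001 to 10000 bp, 1 of 2 pairs did, and 51.1% of 45 pairs over the whole list. Over the whole list 87.5% of 336 pairs within 100 bp shared their direction, but only 18.5% of 178 pairs at 101 to 1000 bp. Both pairs of that wider spacing at the patterning factor genes were at Gbx2, 147 and 944 bp apart, and both went the same way. They are 2 pairs of a single gene, too few to set beside the list.

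Members with a known role in blood and immune cells were taken from a list of 34. Of these, 9 had a called site (26.5%), against 2.47 expected from genes of like length: Hoxa9, Hoxa10, Hoxb3, Sox5, Foxj1, Foxk1, Foxp4, Tbx21 and Gata3. They rest on 8 CpGs, 5 higher and 3 lower. Of the other 143 patterning factor genes 17 had one (11.9%), against 7.24 expected. The list was written with the sites of several of these genes known, so its larger share is no independent evidence. Among its members without a called site were Gata1, Gata2, Pax5, Foxo1, Foxp1 and Foxp3.

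Other genes of the same embryonic programmes were counted in the same way. Of 69 homeobox genes outside the families, 8 had a called site (11.6%, 3.99 expected). The largest in the authors' deposited table were Evx2 (55.0 points), Pbx4, a cofactor of Hox proteins (37.7 points), and Tlx3, a factor of sensory neurons (36.4 points). Of 62 signals and receptors of patterning, 10 had a site (16.1%, 4.26 expected), the largest at Wnt8b (-37.4 points), Fgfr1 (36.3 points) and Bmp7 (33.0 points) in the authors' deposited table. Of 49 bHLH and zinc-finger factors, 3 did (6.12%, 2.17 expected): Gli2, a transducer of Hedgehog signals (39.5 points), Sall1 (36.2 and 30.4 points) and Sall4 (-25.7 points) in the authors' deposited table. The Polycomb and trithorax regulators, which silence and activate patterning genes, had sites at 3 of 42 genes (7.14%, 3.11 expected). Among them were Suz12 (34.2 and -25.2 points) and Kdm2b (26.0 points) in the authors' deposited table.

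**Figure D5:**
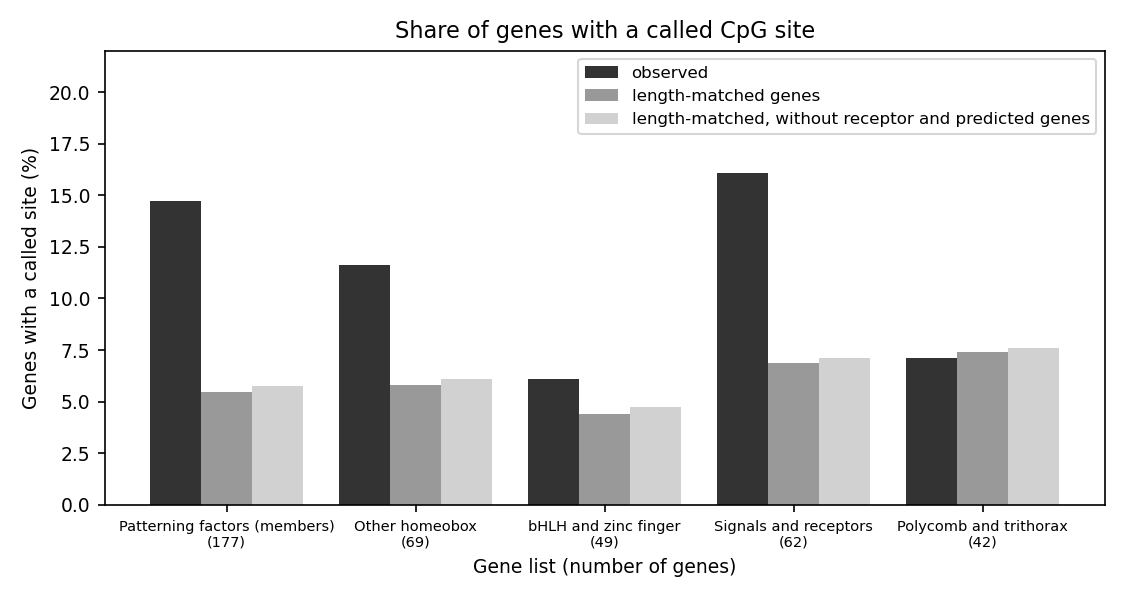
Percent of genes with a called CpG site (dark bars) for the patterning factors and 4 further lists, beside the percent expected from genes of like length (middle bars) and from such genes without olfactory, vomeronasal and trace amine receptor genes and predicted genes (light bars). The patterning factors (14.7%), other homeobox genes (11.6%) and signals and receptors (16.1%) stand above the expected share, while the Polycomb and trithorax regulators (7.14%) do not. The bHLH and zinc-finger factors stand nearer to it, at 6.12% (3 of 49 genes), with 4.42% expected from genes of like length.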

How the data were processed

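RRBS libraries of 12 samples were compared by the authors, 6 with maternal corn oil and 6 with maternal DEHP. Per the submitters' processing notes methylKit and GRCm38 (mm10) were used; no source used here names the aligner, coverage minimum or test. Per the file headers, each deposited row holds a position with its p-value, q-value and signed difference in percentage points of methylation. Depth is unknown, and no test was run.

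Gene spans came from the RefSeq table of GRCm38.p6 (chromosomes 1 to 19 and X). Sites were assigned within 5 kb of a span, and loci merged sites within 1 kb. Expected numbers sum, over genes, the share with a called site among non-member protein-coding genes with a span within 10% of each gene's own. The counting was tested on simulated data (Python 3.11.15, pandas 2.3.3). Every member with a site is named, and up to 3 genes of each other list, by size; an item that this rule takes is not reported here. Members and lists were chosen with earlier results of these data known.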

Additional observations from a re-analysis of the deposited data

How the results depend on the processing

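No paired analysis was possible because no value of a single library was used; for the same reason no library could be left out. The ratio of observed to expected genes stayed between 1.98 and 3.02 over 9 settings, 1 of them, without receptor and predicted genes in the comparison (2.55), chosen after seeing the data. The match on promoter CpG content is void, since 64.4% of the genes had a promoter sequence. A q-value under 0.001, 1 of the 9 settings, removed 0 sites and so tested nothing. The ratio at 40 points or more rests on 2 genes.

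The counts moved with the rule for a site. Inside spans alone, 16 genes had a site, and 11 sites were higher. Within 20 kb, 40 genes had one. With at least 30 points, 9 genes of 5 families (4.55 genes expected from genes of like length) had 5 higher and 15 lower sites (25% higher). With at least 40 points, 2 genes of 2 families (0.718 genes expected) had 1 higher and 5 lower sites (16.7% higher). The lower share at larger differences comes from Sox3. All 5 lower sites of at least 40 points were at Sox3, as were most of the 15 of at least 30 points. On autosomes alone, and likewise without the Sox3 locus, 11 sites were lower, which put 62.1% higher in place of 42.9%. Counted as single sites in place of loci, 24 were lower in place of 11. Among the other 35 values of the main results under an alternative, those at a q-value under 0.001 could not move. All 35 stayed within 1.5 times the main count or within its 95% binomial interval (exact). That interval covers counting error at most. It treats sites and genes as independent, though the Sox3 sites can share reads and some Hox genes share a site.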
